A study of Homo sapiens with 9 samples.

Results

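CYP2R1 and 7 other genes of vitamin D metabolism and signalling were followed in nascent transcription of MEL624, a human melanoma cell line, in which PCIF1 was intact or knocked out; PCIF1 adds a methyl group to the adenosine beside the mRNA cap. The 8 genes were chosen by name from 58336 listed genes: the hydroxylase genes CYP2R1, CYP27A1, CYP27B1 and CYP24A1, the receptor genes VDR, RXRA and RXRB, and PDIA3. CYP2R1 was selected from its values in these data, near 0 in control and present in both clones, so its pattern is given as a description. Precision run-on sequencing (PRO-seq), which maps RNA polymerases engaged on genes, had been done on 9 libraries: 3 of MEL624 cells with wild-type PCIF1 carrying a random guide RNA (control), 3 of PCIF1 knockout clone 1 and 3 of PCIF1 knockout clone 2. Each knockout group is 1 clone of cells, so what a clone carries besides the knockout cannot be told apart from the loss of PCIF1. The deposited table holds 1 mean per group, so no value has a standard deviation and no difference was tested against replicate error.

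Vitamin D from skin or food is inactive and becomes a hormone by successive hydroxylations. CYP2R1, an enzyme of the endoplasmic reticulum, is known chiefly from liver as the main enzyme that makes calcidiol, the circulating form; CYP27A1, a mitochondrial sterol hydroxylase, can make it too. CYP27B1 turns calcidiol into calcitriol, the hormone, and CYP24A1 degrades both. Calcitriol binds VDR, which pairs with a retinoid X receptor such as RXRA or RXRB on DNA and activates target genes, of which CYP24A1 is the most responsive in many tissues. PDIA3, a disulfide isomerase that folds glycoproteins, has also been described as a membrane binder of calcitriol. Skin cells, melanocytes among them, can carry parts of this pathway.

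The depth behind each mean could be read from the smallest values. Levels below are mean normalized counts per gene, obtained as the deposited value per kb times the gene length, unless a value is said to be per kb. In genes of at most 1500 bases, means below 0.45 lay at the size of 1 counted read in 1 library, which averaged 0.363 in control (2049 genes), 0.288 in clone 1 (2202 genes) and 0.340 in clone 2 (2257 genes). The counted reads of each gene over the 3 libraries of a group were estimated from these sizes. Intervals below are exact 95% intervals of those reads (Poisson for a level, Clopper-Pearson for a ratio). They cover counting error only, and they leave out 1 for 43.3% of 17149 genes compared in clone 1 and 52.2% in clone 2. The 17149 genes are those with a mean of at least 10 counts over the 3 groups. PCIF1 itself, on chromosome 20, had 239.5 counts in control against 269.6 in clone 1 and 239.3 in clone 2; a small edit of the gene need not alter its transcription, so this does not check the labels. The differentiated melanocyte programme was thinly transcribed. TYR was at 0 in every group, and MLANA and DCT were at 2.04 counts or lower. SOX10 was at 0 in control and clone 1 and at 6.08 in clone 2, while MITF had 168.5, 142.0 and 259.2. In all, 4 of 12 melanocyte markers passed the floor of 10 counts, with summed levels of 430.1, 524.9 and 594.5. Besides MITF these were the transcription factor gene PAX3 (152.4, 286.9 and 220.7), the vesicle transport gene RAB27A (44.5, 59.3 and 69.6) and the melanosome scaffold gene PMEL (48.4, 21.3 and 23.8). PAX3 and RAB27A were higher in the clones. PMEL was lower in both, with plain ratios to control of 0.441 and 0.491. With a pseudocount of 1 its log2 ratios were -1.145 and -0.997, so only clone 1 passed the cut of -1. Markers of immune and endothelial cells summed to 13.4 to 15.9 counts, those of liver and kidney to 23.8 to 35.1, those of fibroblasts to 146.2 to 162.4, with PDGFRB the highest (110.69, 75.51 and 99.99), and those of keratinocytes and epithelia to 1248.7 to 1470.2, nearly all from KRT18, KRT8 and KRT10, with KRT5 and KRT14 at 0.34 or lower. Of the fibroblast markers, FAP was at least 2-fold higher in both clones (1.4, 27.6 and 9.87 counts), and LUM, at 0.69, 7.91 and 7.10, was below the floor. The part of these markers in the results was not tested.

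The promoter of CYP2R1 is shown because the gene had nearly no reads in control and many in the clones, with that of CYP27A1, the other calcidiol-making hydroxylase, and that of RXRB, a member whose level was alike in all groups, for comparison. Sequences are RefSeq windows (GRCh38.p14) of 300 bases, from 250 before to 50 after a start site, written 5′ to 3′ on the gene's strand, with each CG dinucleotide in capitals. Of the 8 genes, 4 were matched in that table: CYP2R1, CYP27A1, RXRA and RXRB; CYP27B1, CYP24A1, VDR and PDIA3 were not matched. Where a gene had several windows, the one nearest to its GENCODE start is used. The start sites of the CYP2R1 and RXRB windows equal the GENCODE start. That of CYP27A1 lies 398 bases downstream of it, so the whole CYP27A1 window is inside the annotated gene. The windows are chr11:14892182-14892481 (minus strand), chr2:218781897-218782196 (plus strand) and chr6:33200616-33200915 (minus strand).
CYP2R1: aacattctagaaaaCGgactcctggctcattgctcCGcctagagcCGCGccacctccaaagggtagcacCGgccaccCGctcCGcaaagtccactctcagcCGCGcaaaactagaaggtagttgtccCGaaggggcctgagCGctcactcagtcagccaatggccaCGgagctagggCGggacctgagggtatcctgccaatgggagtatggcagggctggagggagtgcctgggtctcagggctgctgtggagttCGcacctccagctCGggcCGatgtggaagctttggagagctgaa
CYP27A1: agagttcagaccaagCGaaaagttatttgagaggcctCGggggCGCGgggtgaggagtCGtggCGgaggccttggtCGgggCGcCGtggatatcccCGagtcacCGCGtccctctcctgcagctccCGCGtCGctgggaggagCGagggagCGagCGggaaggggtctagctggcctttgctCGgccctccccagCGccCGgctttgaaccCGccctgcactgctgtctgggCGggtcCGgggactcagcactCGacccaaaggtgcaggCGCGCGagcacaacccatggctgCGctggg
RXRB: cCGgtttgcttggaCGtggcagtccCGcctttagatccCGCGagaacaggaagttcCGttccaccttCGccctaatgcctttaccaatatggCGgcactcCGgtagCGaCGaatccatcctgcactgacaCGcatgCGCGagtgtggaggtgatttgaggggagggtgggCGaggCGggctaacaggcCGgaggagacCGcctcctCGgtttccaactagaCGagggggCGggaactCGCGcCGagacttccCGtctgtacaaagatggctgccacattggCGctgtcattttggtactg
The CYP2R1 window held 16 CG dinucleotides and was 61.3% G or C. Among 34943 promoter windows of the same length the median was 14 CG, and 52.6% had fewer than this CYP2R1 window. The count depends on the start site. Other CYP2R1 windows, with start sites 212 and 560 bases from the GENCODE start, held 10 and 28 CG. These were 50.3% and 70.0% G or C, and another RXRB window, 188 bases away, held 17 CG. The CYP27A1 window held 29 CG and the RXRB window 26, more than 75.8% and 70.0% of all windows. CCAAT, searched on both strands, occurred 2 times in the CYP2R1 window and 2 times in that of RXRB but not in that of CYP27A1; 34.65% of all windows had it. The GC-rich motif GGGCGG occurred 1 time in CYP2R1 and in RXRB and 2 times in CYP27A1 (44.9% of all windows); each match includes a counted CG. None of the 3 held TATAAA (11.6% of all windows) or AGGTCA, the unit of vitamin D response elements (13.8%). The full direct repeat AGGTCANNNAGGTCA was absent from them and present in 2 of all windows, which says only that these letters do not occur there.

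CYP2R1 (ENSG00000186104; GRCh38 chromosome 11, 14877440 to 14892231, minus strand) had a mean normalized count of 0.36 in control, 67.6 in clone 1 and 58.7 in clone 2. The control value corresponds to about 1 counted read over the 3 control libraries, against about 235 reads in clone 1 and 173 in clone 2. Its ratio to control was 187 in clone 1 (counting interval 33.2 to 7401) and 162 in clone 2 (28.7 to 6439); the width comes from the lone control read. The clones lay close together, with clone 2 at 0.868 of clone 1 (0.710 to 1.06), an interval that includes 1. With a pseudocount of 1 the log2 ratios were 5.65 and 5.45, and these values depend on the pseudocount. Per kb, CYP2R1 stood at 0.08, 14.96 and 12.99, above 22.2% of 19773 protein-coding genes in control and above 54.0% and 51.8% in the clones, near the middle of the protein-coding genes. Of all genes compared, 2.27% were at least 2-fold higher than control in clone 1 and 3.34% in clone 2, and 1.66% in both; CYP2R1 was selected for being among them. At least 2-fold lower were 1.32% in clone 1, 1.9% in clone 2 and 0.589% in both. Of the 8 genes, 6 were compared and none of these was among them. A low mean over a culture can mean fewer cells transcribing a gene or fewer polymerases per cell, and the table cannot tell these apart.

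**Figure D1:**
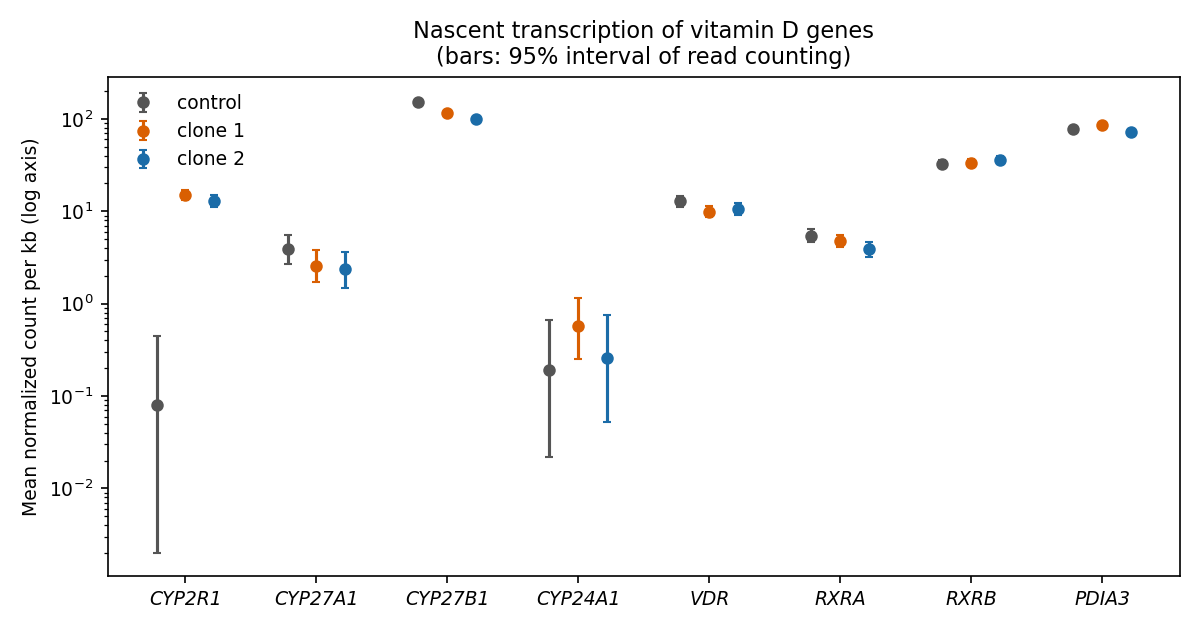
Mean normalized count per kb (log axis) of the 8 vitamin D genes in control (grey), clone 1 (orange) and clone 2 (blue); each point is the authors' mean of 3 libraries and each bar the 95% counting interval. CYP2R1 moves from 0.08 to 14.96 and 12.99, while the other genes keep their order of size.

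The gene next to CYP2R1 was likewise near 0 in control and transcribed in both clones. PDE3B, which encodes a phosphodiesterase that breaks down cyclic AMP and cyclic GMP, lies on the plus strand and ends 5395 bases from the end of CYP2R1, so both genes point toward each other and their start sites lie 248427 bases apart. PDE3B was listed at 0 in control, with 66.0 counts in clone 1 and 87.0 in clone 2. Rounding of the deposited value hides at most 0.059 counts for a gene of its length, less than 1 read, so no control read was counted. Clone 2 was at 1.32 of clone 1 (1.10 to 1.58) for PDE3B and at 0.868 (0.710 to 1.06) for CYP2R1. The PDE3B interval leaves out 1, as do those of 37.2% of all genes between the clones. Its log2 ratio of 0.39 lay inside the central 95% of genes of 50 to 200 counts, from -0.50 to 0.63. No exon of another listed gene overlaps those of CYP2R1. Which strand was counted is not given, so reads of polymerases that ran past the end of 1 gene into the other cannot be told apart. On the far side of PDE3B, 3 of the next 4 protein-coding genes were transcribed in all groups, and ENSG00000256206, which overlaps PSMA1 and COPB1, was at 0 in each. The proteasome subunit gene PSMA1, whose start site is 169 bases from that of PDE3B on the other strand, had 143.1, 171.8 and 169.2 counts, the coatomer gene COPB1 479.1, 612.7 and 612.5, and the RAS family gene RRAS2 170.0, 207.1 and 234.9. These 3 genes had log2 ratios between 0.24 and 0.46, and none had fewer than 143.1 counts in control. On the side of the CYP2R1 start, the neighbours were nearly silent in every group. CALCB and CALCA, which encode calcitonin gene-related peptides and calcitonin, were at 0 in control and clone 1 and at 1.02 and 0.34 counts in clone 2, and the polarity gene INSC was at 0, 0 and 0.69. Within 1 Mb, 24 listed genes start, of which 14 were at 0 in all groups, the protein-coding SPON1 and ENSG00000256206 among them, and 6 passed the floor. PDE3B and CYP2R1 were the adjacent pair near 0 in control and transcribed in the clones.

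**Figure D2:**
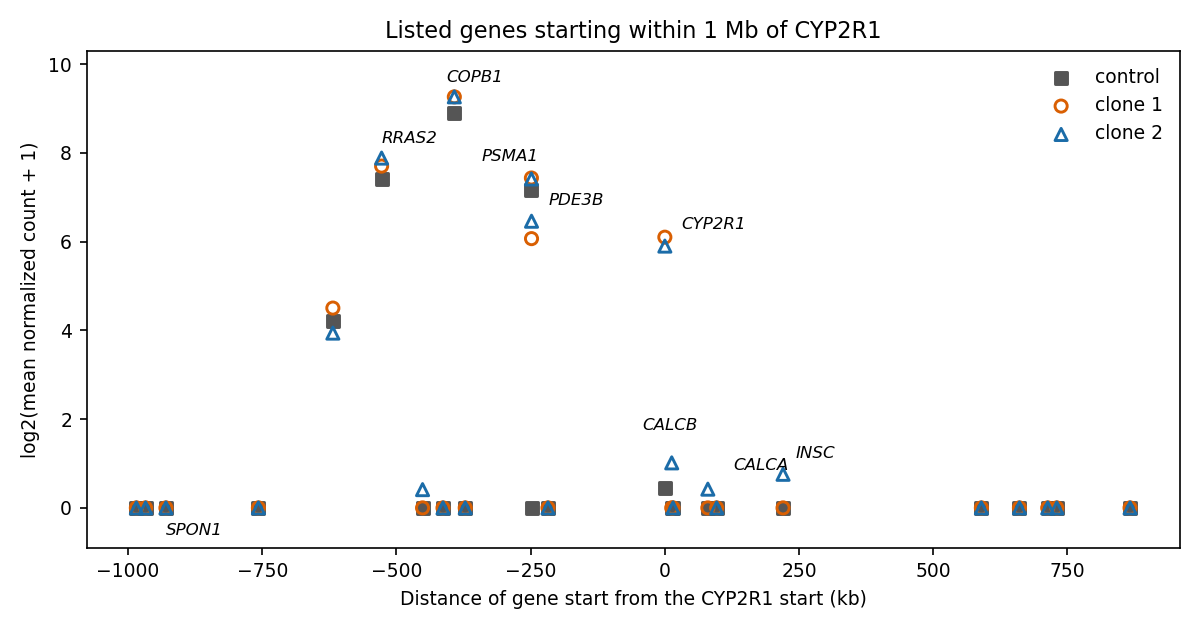
Level, as log2(mean normalized count + 1), of the 24 listed genes that start within 1 Mb of CYP2R1, against the distance of their start from that of CYP2R1 in kb; control is shown as grey squares, clone 1 as orange circles and clone 2 as blue triangles. PDE3B and CYP2R1 have control squares at or near 0 and clone symbols near 6, whereas RRAS2, COPB1 and PSMA1 have all 3 symbols close together.

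Likeness to CYP2R1 was measured over the 3 group means, as the Euclidean distance of log2(count + 1), among protein-coding genes. The nearest was PDE3B (distance 0.716), followed by the zinc finger genes ZNF677 (0.815; 0, 78.1 and 92.7 counts) and ZNF141 (0.837; 0, 48.3 and 40.4), the receptor gene GPR173 (0.95; 1.43, 55.3 and 45.7) and the cyclic GMP-dependent kinase gene PRKG1 (1.04; 1.03, 38.0 and 72.9). They lie on chromosomes 11, 19, 4, X and 10. By a criterion chosen after the values were seen, 6 of 58336 listed genes (0.0103%) had under 1 count in control and at least 50 in each clone: CYP2R1, PDE3B, ZNF677, MGMT, MIR3667HG and the noncoding gene ENSG00000268119. CYP2R1 and PDE3B were the neighbours among them.

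The other calcidiol-making gene, CYP27A1 (ENSG00000135929; chromosome 2, 218781749 to 218815293, plus strand), was low in all groups, at 11.5 counts in control against 7.70 in clone 1 and 7.10 in clone 2, or about 32, 27 and 21 reads. Its mean of 8.77 missed the floor, so it was not compared. The ratios of 0.668 (0.386 to 1.15) and 0.617 (0.337 to 1.10) include 1, so at this depth no difference could be seen. Per kb, CYP27A1 exceeded CYP2R1 in control (3.86 against 0.08) and was below it in clone 1 (2.58 against 14.96) and clone 2 (2.38 against 12.99); the change of order follows from the values by which CYP2R1 was chosen. The neighbours of CYP27A1 were TTLL4, a tubulin-modifying enzyme gene, at 228.9, 227.6 and 214.2 counts, and PRKAG3, a muscle AMP kinase subunit gene, at 1.10, 1.07 and 0.33.

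CYP27B1, which makes the hormone (ENSG00000111012; chromosome 12, 57762334 to 57768986, minus strand), had the highest level per kb of the 8 genes in every group. It stood at 154.05 per kb in control, 115.80 in clone 1 and 99.72 in clone 2, above 96.5%, 94.5% and 92.7% of protein-coding genes. In counts per gene these are 529.9, 398.4 and 343.0. The control is highest and clone 2 lowest, and the counting intervals of the 3 levels do not overlap. The ratio to control was 0.752 (0.698 to 0.810) in clone 1 and 0.647 (0.597 to 0.702) in clone 2, and clone 2 was at 0.861 of clone 1 (0.793 to 0.935). The intervals against control lie below 1, as do those of 21.1% of all genes in clone 1 and 24.9% in clone 2; above 1 were 22.2% and 27.3%. Between the clones the interval left out 1 for 37.2% of all genes, above it for 19.6% and below it for 17.5%. Set against genes of 200 to 1000 counts, the log2 ratio of -0.41 was higher than that of 3.2% of them in clone 1, and -0.63 higher than that of 1.5% in clone 2. The central 95% of such genes ran from -0.44 to 0.62 and from -0.51 to 0.77, so CYP27B1 was inside that range in clone 1 and outside it in clone 2. CYP27B1 lies downstream of METTL1, a tRNA methyltransferase gene, on the same strand, and their exons share 107 bases (3.3% of those of CYP27B1). Reads of polymerases that run past the end of METTL1 cannot be told apart from reads of CYP27B1. METTL1 had 354.9, 420.3 and 380.4 counts, log2 ratios of 0.24 and 0.10, in the direction opposite to CYP27B1. On the other side, MARCHF9, a ubiquitin ligase gene on the plus strand, had 85.4, 72.0 and 95.3.

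CYP24A1, the degrading enzyme and the usual readout of VDR (ENSG00000019186; chromosome 20, 54153446 to 54173986, minus strand), was nearly silent. It had 0.75 counts in control against 2.30 in clone 1 and 1.03 in clone 2, about 2, 8 and 3 reads. The ratios of 3.05 (0.634 to 30.7) and 1.37 (0.161 to 16.8) include 1. A difference at CYP24A1 was not detectable at this depth. The neighbours BCAS1 (53.2, 46.2 and 49.5) and PFDN4 (59.7, 52.4 and 45.7) were transcribed in all 3 groups. Their log2 ratios in clone 1 and clone 2 were -0.20 and -0.10 for BCAS1 and -0.19 and -0.38 for PFDN4.

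VDR (ENSG00000111424; chromosome 12, 47841537 to 47943048, minus strand), the receptor of calcitriol, had 73.3 counts in control against 56.3 in clone 1 and 60.1 in clone 2. Both clones were below control, with ratios of 0.768 (0.630 to 0.942) and 0.820 (0.667 to 1.01), and the second interval includes 1. The log2 ratios of -0.38 and -0.28 lay inside the central 95% of genes of 50 to 200 counts, from -0.64 to 0.80 in clone 1 and from -0.72 to 0.98 in clone 2. A noncoding gene on the opposite strand, ENSG00000205537, shares 19 exon bases with VDR. The adjacent deacetylase gene HDAC7 had 414.5, 347.8 and 329.6 counts, and TMEM106C on the other side had 65.1, 61.5 and 70.5.

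RXRA (ENSG00000186350; chromosome 9, 134317098 to 134440585, plus strand) had 58.9, 51.2 and 41.7 counts, again highest in control. Its ratio was 0.868 (0.697 to 1.08) in clone 1 and 0.708 (0.555 to 0.899) in clone 2. Its neighbours were the histone methylation gene WDR5, at 336.5, 358.3 and 368.1, and the collagen gene COL5A1, at 13.7, 4.81 and 10.5. RXRB (ENSG00000204231; chromosome 6, 33193588 to 33200665, minus strand) was level, at 128.2, 131.8 and 140.6 counts, with ratios of 1.03 (0.892 to 1.18) and 1.10 (0.949 to 1.27). Both intervals include 1, but they hold counting error only and do not bound the difference between the groups. Per kb, RXRB stood above RXRA in each group, at 32.71, 33.63 and 35.86 against 5.45, 4.73 and 3.86. The lengths divided by were 3920 bases for RXRB and 10814 for RXRA. RXRG, the remaining family member, was at 0 in all groups. The start of RXRB overlaps that of the zinc transporter gene SLC39A7 on the other strand (361 exon bases, 9.3% of those of RXRB). SLC39A7 had 128.0, 106.7 and 142.2 counts. As the strand counted is not given, SLC39A7 reads in the shared bases cannot be told apart from RXRB reads. The other neighbour of RXRB, the collagen gene COL11A2, was at 3.91, 10.4 and 8.83.

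PDIA3 (ENSG00000167004; chromosome 15, 43746394 to 43773279, plus strand) was well transcribed, at 329.4 counts in control against 360.8 in clone 1 and 308.5 in clone 2. The clones lay on opposite sides of control. The ratio was 1.095 (1.005 to 1.194) in clone 1 and 0.936 (0.853 to 1.03) in clone 2, and clone 2 was at 0.855 of clone 1 (0.784 to 0.931). Its exons share 622 bases with ELL3, an elongation factor gene on the other strand, which had 14.05, 18.03 and 23.82 counts. The gene on its other side, the sperm channel gene CATSPER2, had 31.6, 27.3 and 22.4.

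By level per kb, the genes ordered in control as CYP27B1, PDIA3, RXRB, VDR, RXRA, CYP27A1, CYP24A1 and CYP2R1. The counting intervals of RXRA and CYP27A1, and those of CYP24A1 and CYP2R1, overlap there. In both clones CYP2R1 moved from the last place to the fourth, ahead of VDR, while the other 7 genes kept their order. The intervals of CYP2R1 and VDR do not overlap in clone 1 (14.96 and 9.92 per kb) and do in clone 2 (12.99 and 10.60), where those of RXRA and CYP27A1 overlap as well. Of the 8 genes, 6 passed the floor, CYP2R1 through its clone values alone. CYP2R1, which was chosen for this, was the 1 that was at least 2-fold off in each clone. Of all genes compared, 3.59% were 2-fold off control in clone 1 and 5.23% in clone 2. Between the clones, none of the 6 was 2-fold off; of all genes 1.05% were 2-fold higher in clone 2 and 0.933% lower, 1.98% together.

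The wider pathway was described with gene lists. Of 15 genes of vitamin D supply, transport, hydroxylation and electron transfer, 10 passed the floor. Besides CYP2R1, the list had 1 gene 2-fold off in clone 1 and none in clone 2; over all genes 3.59% and 5.23% were. That gene was CYP2J2, an epoxygenase that can also hydroxylate vitamin D, with 18.9 counts in control against 2.51 in clone 1 and 27.8 in clone 2. Its log2 ratios were -2.50 and 0.53, so the clones lay on opposite sides of control. None of the 4 electron donors was 2-fold off. POR, the reductase that serves CYP2R1, had 349.4, 476.7 and 468.7 counts (log2 ratios 0.45 and 0.42), and FDXR, which serves the mitochondrial enzymes, 260.9, 295.1 and 348.5. Of the ferredoxin genes, FDX1 had 56.2, 57.5 and 62.1 counts, with both counting intervals including 1. FDX2 had 29.0, 39.5 and 30.2 counts, with a ratio of 1.36 (1.025 to 1.81) in clone 1 and 1.04 (0.762 to 1.43) in clone 2. DHCR7, which uses up the vitamin D precursor to make cholesterol, was level at 97.6, 99.1 and 103.5. Without CYP2R1, which was chosen for its values, the median log2 ratio of the 9 other genes was 0.18 in clone 1 and 0.14 in clone 2, against -0.005 and -0.004 over all genes compared; with it the medians were 0.22 and 0.28. GC, the vitamin D carrier protein of plasma, and LRP2, the uptake receptor of kidney tubules, had under 2 counts in every group.

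None of 14 VDR coregulators, all above the floor, was 2-fold off in either clone, where 3.59% and 5.23% of all genes were. Their median log2 ratios were -0.04 and -0.15. The corepressor gene NCOR1 had 558.6, 574.3 and 500.0 counts, the acetyltransferase gene CREBBP 495.3, 486.0 and 382.8, the remodeller gene BAZ1B 462.5, 444.1 and 367.5 and the Mediator gene MED1 416.4, 400.5 and 408.7.

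Of 30 textbook VDR targets, 13 passed the floor and none of these was 2-fold off, against 3.59% and 5.23% of all genes, with medians of 0.03 and -0.05. The cell cycle inhibitor gene CDKN1A had 958.7, 957.5 and 858.2 counts, the stress gene GADD45A 909.5, 803.5 and 770.1, the MYC antagonist gene MXD1 420.4, 430.4 and 429.6 and the calcium pump gene ATP2B1 303.8, 308.8 and 293.4. The target farthest from control in clone 1, named after its value was seen, was SPP1, the gene of the secreted protein osteopontin, with 145.6, 269.9 and 211.6 counts and ratios of 1.85 (1.65 to 2.09) and 1.45 (1.28 to 1.65). The remaining 17 targets, CYP24A1 and the antimicrobial peptide gene CAMP among them, were below the floor and were not compared.

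Among 15 nuclear receptors that pair with RXR, 12 passed the floor. The retinoic acid receptor gene RARB was the member 2-fold off in clone 1, with 138.6 counts in control against 43.1 in clone 1 and 76.6 in clone 2, or log2 ratios of -1.66 and -0.85. No member was 2-fold off in clone 2; 1 of 12 and none stand beside 3.59% and 5.23% of all genes. PPARG, the fat cell regulator, had 196.7, 191.2 and 280.4 counts, RARA 221.5, 210.1 and 191.4, the oxysterol receptor gene NR1H3 167.3, 161.4 and 227.0 and NR4A2 147.0, 178.0 and 156.2. Of 22 genes of the disulfide isomerase family and its partners, 19 passed the floor and none was 2-fold off in either clone, beside the same shares of all genes. The lectin chaperone genes CALR (3077.8, 3364.2 and 3224.8 counts) and CANX (721.3, 835.2 and 764.0), with which PDIA3 works, and P4HB (938.8, 911.1 and 797.1) and TXNDC12 (374.9, 435.5 and 521.4) were the most counted.

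**Figure D3:**
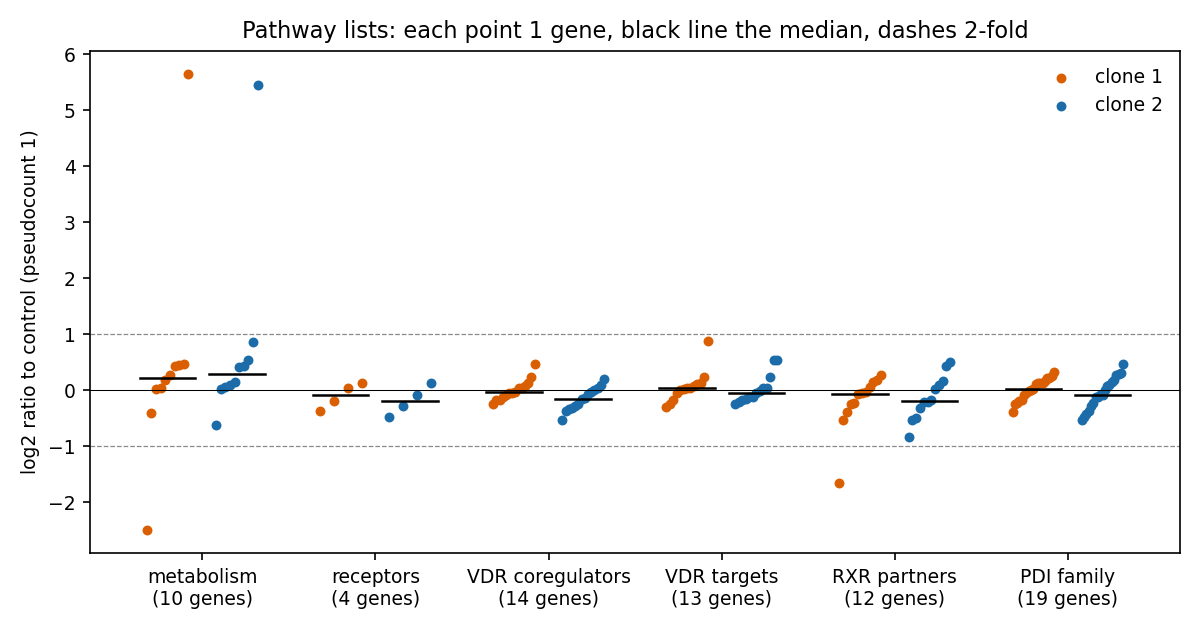
log2 ratio to control (pseudocount 1) of each gene that passed the floor, by list, for clone 1 (orange) and clone 2 (blue); black lines are medians, CYP2R1 included, and dashed lines mark 2-fold. The point above 5 in each clone is CYP2R1, and the points below -1 are CYP2J2 (-2.50) and RARB (-1.66) in clone 1.

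CYP2R1 was also set among the cytochrome P450 genes, the haem enzymes to which all 4 hydroxylases belong. Of 57 listed protein-coding members, 19 were at 0 in all groups and 14 passed the floor. In clone 1, 3 were at least 2-fold higher and 1 lower; in clone 2, 2 were higher and none lower. Of all genes, 2.27% were higher and 1.32% lower in clone 1, and 3.34% and 1.9% in clone 2. Leaving out CYP2R1, which was chosen for this, 3 of 13 were 2-fold off in clone 1 and 1 of 13 in clone 2. By log2 ratio, CYP26B1 in clone 1 (-0.97) and CYP1A1 in clone 2 (-0.95) just missed the lower cut. The nearest miss upward was CYP11A1 in clone 2 (0.86). Next to CYP2R1 stood CYP51A1, the lanosterol demethylase of cholesterol synthesis, at 62.3, 128.6 and 158.6 counts (log2 ratios 1.03 and 1.33). CYP39A1, an oxysterol hydroxylase, had 8.31, 18.3 and 12.1 (1.05 and 0.50), and the lower gene was CYP2J2. CYP11A1, which cleaves the side chain of cholesterol and can act on vitamin D, was within 2-fold at 52.4, 72.4 and 96.0. The median log2 ratio of the 13 genes other than CYP2R1 was 0.11 in clone 1 and 0.25 in clone 2; with CYP2R1 it was 0.14 and 0.37.

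**Figure D4:**
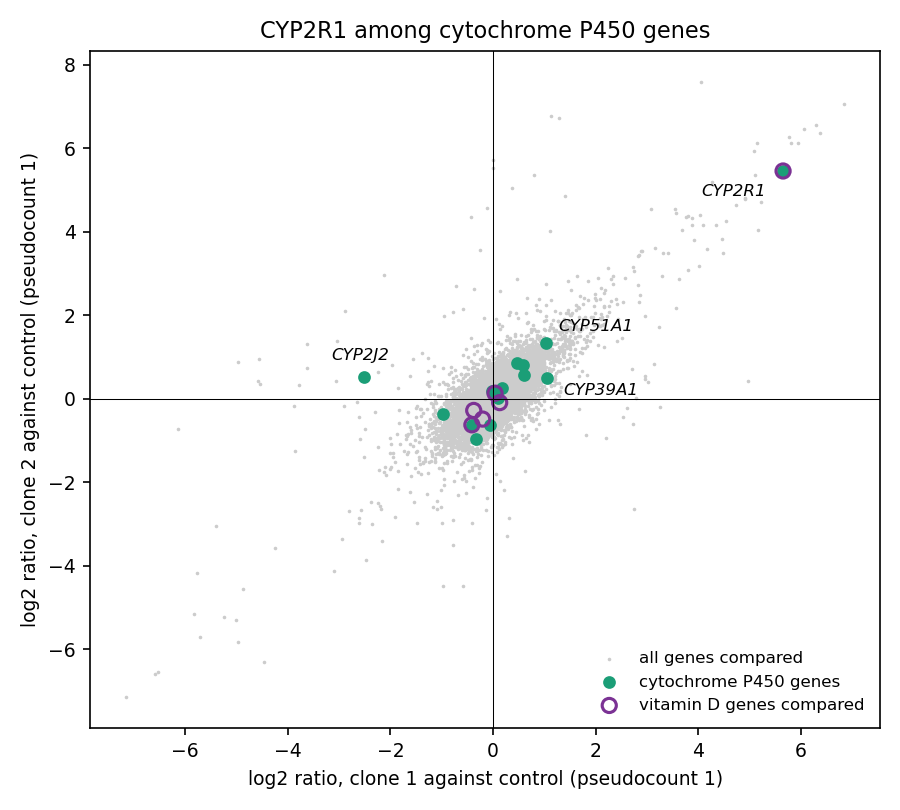
log2 ratio to control in clone 2 against that in clone 1 (pseudocount 1) for all 17149 genes compared (grey), 14 cytochrome P450 genes (green) and the 6 vitamin D genes that passed the floor (purple rings); both axes share the control mean. CYP2R1 lies at 5.65 and 5.45, CYP51A1 at 1.03 and 1.33, and the other 5 vitamin D genes within 2-fold of control.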

How the data were processed

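PRO-seq libraries of 3 groups (3 each) were summarised by the authors. Per the file header, the deposited signal is the mean of normalized counts over a group's replicates divided by gene length in kb; 582 identifiers had no match in GENCODE release 44, which gave symbols and GRCh38 positions. Among tools, the submitters' processing notes list DESeq2, featureCounts, Bowtie 1.2.2 and cutadapt 1.14, and among builds hg38, dm3 and GRCh38.p12. What was counted, on which strand, and how a spike-in entered remain not given in the sources used here. Rows have fewer cells than the header: 6 names stand over 5 cells; the second cell equals the merged exon length for 64.4% of matched identifiers, so the symbol is taken as the missing cell. For PDIA3 the deposited length of 4240 bases is shorter than the 11774 of release 44.

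Values were multiplied by length. Ratios use a pseudocount of 1 for log2 values and none for plain ratios, and genes with log2 ratios of 1 or more, or -1 or less, count as 2-fold off. With 1 mean per group there is no replicate error, and p-values were not computed. Code was tested on simulated data. Members and lists were chosen with earlier results of these data known. Named genes are the members, protein-coding neighbours of CYP2R1 within 1 Mb that are above 0, the nearest genes beside other members, in each list those 2-fold off and the 4 most counted, 2-fold P450 genes and the 5 genes most like CYP2R1; others were chosen after their values were seen. Alternatives were median-of-ratios and quantile scaling, pseudocounts of 0.5 and 5, values per kb, no floor and a floor of 50. Software was matplotlib 3.10.9, pandas 2.3.3, numpy 2.4.6, scipy 1.17.1 and Python 3.11.15.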

Additional observations from a re-analysis of the deposited data

How the results depend on the processing

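No paired analysis was possible because the table holds 1 mean per group, and for the same reason no replicate could be left out. All 48 levels of the 8 genes under both other scalings stayed within their counting intervals, as did 86 of 90 log2 ratios under the 5 alternatives run on them. The exceptions were those of CYP2R1, which fell to 3.76 (clone 1) and 3.57 (clone 2) with a pseudocount of 5 and to 3.89 and 3.70 on values per kb; both add more to its near-zero control. Without a floor 2838 genes were 2-fold off in clone 1 and 3623 in clone 2, and with a floor of 50 counts 170 and 293 (615 and 897 as reported). Of the genes 2-fold off, 63.3% and 63.8% were higher as reported, 53.2% and 51.2% per kb and 49.4% and 49.5% without a floor. For P450 genes the number 2-fold off was 1 in each clone with a floor of 50, 2 in clone 1 with a pseudocount of 5, and 0 and 1 per kb. For vitamin D metabolism genes it was 0 in both clones with a floor of 50 and per kb, since CYP2R1 and CYP2J2 then miss the floor. Without a floor it was 1 in clone 1 for the disulfide isomerase family, 2 in each clone for RXR partners and 1 in each for VDR targets. Counting error limits CYP24A1, CYP27A1 and the control value of CYP2R1; the spread between replicates is unknown for all.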
